A study of Mus musculus with 8 samples.

Results

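The RGS (regulator of G protein signalling) genes studied here are Rgs1, Rgs2, Rgs3, Rgs10, Rgs13, Rgs14, Rgs16, Rgs18 and Rgs19. They were taken by symbol from a table of gene expression in germinal centre B cells, and are 9 of its 23234 genes. Of the 9, 8 passed the filter on low values and were tested, and Rgs16 did not pass it. RGS proteins shorten signalling through G protein-coupled receptors: most speed the hydrolysis of GTP by alpha subunits of the Gi or Gq families, which returns the G protein to its inactive state. Germinal centre B cells move under the control of such receptors, among them the chemokine receptors CXCR4 and CXCR5 and the sphingosine-1-phosphate receptor S1PR2. In mouse B cells, Rgs1 and Rgs13 are known to dampen responses to chemokines.

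RNA was sequenced from splenic germinal centre B cells of 4 groups with 2 libraries each. The dKO groups, light zone (LZ) and dark zone (DZ), were Bach2(f/f) and Prdm1(f/f), with 1 copy each of ERT2cre(KI/+) and B1-8hi(KI/+). The sKO groups, LZ and DZ, were Bach2(+/+) but Prdm1(f/f) too, again with ERT2cre(KI/+) and B1-8hi(KI/+). Bach2 encodes a transcription factor that represses its target genes in B cells, and Prdm1 encodes Blimp1, the plasma cell factor. All groups thus carried floxed Prdm1 alleles, the tamoxifen-inducible Cre and the B1-8hi antigen receptor gene, which binds the hapten NP, on a C57BL/6 background. Groups with intact Prdm1 were not analysed here. The sources used here give neither the age of the animals nor the promoter that drives the Cre. Naive donor B cells were moved into wild-type mice, which received 3 mg tamoxifen for 3 days and then NP-CGG in alum. NP-binding, GL7+ CD38- donor cells were sorted on day 10 from the pooled spleens of 5 recipients as LZ cells (CD86 high, CXCR4 low) or DZ cells (CD86 low, CXCR4 high), about 30000 per library. The recipients were wild type, so their own T cells and stroma carried no floxed allele. The labels do not say whether the 2 libraries of a group came from separate pools of mice, so p-values measure the spread between these libraries, which may be technical.

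Levels are FPKM, sequenced fragments scaled to transcript length and to the mapped fragments of the library. The libraries had 10192 to 10250 genes at 1 FPKM or more, and replicates correlated across genes on the log2(FPKM + 1) scale with r from 0.946 to 0.960. Absolute depth is unknown; relative to sKO LZ replicate 1, the estimated depth was 1 to 1.10 in LZ and 1.42 to 1.63 in DZ. Bach2 itself was listed at 62.7 to 64.5 FPKM in dKO LZ and 49.8 to 53.4 FPKM in sKO LZ, and at 94.5 to 96.2 FPKM in dKO DZ and 74.6 to 76.2 FPKM in sKO DZ. The sources used here do not name the deleted exon, and these gene-level values therefore do not check the genotype. All 8 germinal centre B cell markers were at 1 FPKM or more in all libraries. The light zone markers summed to 7070 to 8428 FPKM in LZ libraries and 4223 to 5367 FPKM in DZ libraries. Most of these sums was Cd74, at 6552 to 7845 FPKM in LZ and 4059 to 5167 FPKM in DZ. They also include Cd86, whose protein was used to sort the zones. Cd83, Cd40 and Nfkbia too were higher in every LZ library than in every DZ library. Of 9 T cell markers only Lck reached 1 FPKM, and Cd3e was at 0 in 6 of 8 libraries, with 0.0771 FPKM at most. Both sKO replicate 1 libraries stood apart in a set of immediate-early genes, described below beside Rgs1 and Rgs2.

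The 9 genes spanned a wide range of levels. Rgs13 was the most abundant, with a mean of 116 FPKM over the 8 libraries, at the 93.7th percentile of the tested genes. Rgs19 (70.1 FPKM), Rgs2 (66.6 FPKM) and Rgs10 (47.4 FPKM) came next. Rgs14 averaged 18.7 FPKM, Rgs1 14.7 FPKM and Rgs18 4.68 FPKM. Rgs3 averaged 0.862 FPKM and Rgs16 0.139 FPKM. Rgs10 was the steadiest of those tested, with its highest library at 1.20 times its lowest, and Rgs1 the most variable, at 12.2 times. Summed over the 9 genes, the level was 324 and 338 FPKM in dKO LZ libraries against 439 and 365 FPKM in sKO LZ libraries. In DZ the sum was 274 and 277 FPKM in dKO libraries against 382 and 317 FPKM in sKO libraries. Without Rgs1 and Rgs2 the sums lay closer together, at 258 and 266 FPKM in dKO LZ, 276 and 292 FPKM in sKO LZ, 223 and 222 FPKM in dKO DZ, and 267 and 263 FPKM in sKO DZ. The sorted cells are a bulk population, in which fewer cells expressing a gene and less RNA per cell cannot be told apart.

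**Figure D1:**
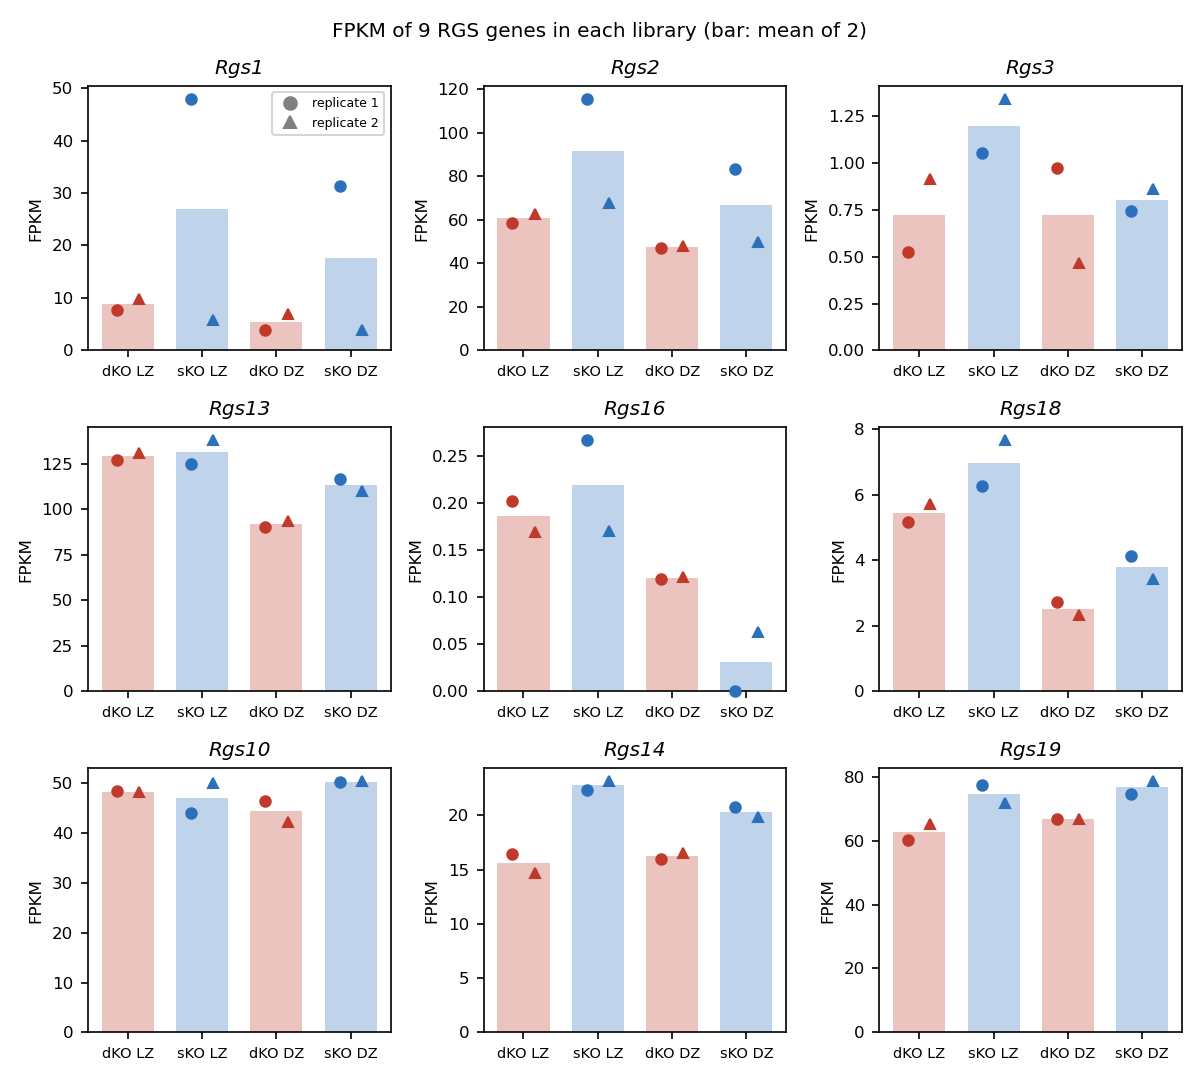
FPKM of the 9 RGS genes in each library, 1 panel per gene with its own axis; bars are the mean of 2 libraries and points the libraries. The sKO replicate 1 libraries sit at 48.0 and 31.4 FPKM for Rgs1, above the other 6 libraries at 3.93 to 9.76 FPKM, while both dKO groups sit below both sKO groups for Rgs14 and Rgs19.

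In the LZ, dKO against sKO, 0 RGS genes rose and 2 of 8 fell (Rgs14 and Rgs19; limma, adjusted p under 0.05), or 25%, where 31.1% of all 10610 tested genes were called (12.7% fell and 18.4% rose). At an unadjusted p under 0.05 the counts were 0 higher and 3 lower. The largest p of these 3, that of Rgs18 (0.0465, limma), ranked 4522 from the smallest among all 10610 tested genes. Unadjusted p-values this low were thus common over all genes. In the DZ, 0 rose and 2 fell (Rgs13 and Rgs14), where 11.9% of tested genes were called (5.23% fell and 6.63% rose). Unadjusted, 0 were higher and 5 lower. The largest p of these 5, that of Rgs10 (0.0402, limma), ranked 2739 of 10610, so the adjusted shares are no measure for the unadjusted counts. The median log2 difference of the 8 genes was -0.33 in LZ and -0.30 in DZ, against 0.022 and 0.014 over all tested genes. These medians include Rgs3, which passed the filter only through sKO LZ, and Rgs1, whose sign turned without the sKO replicate 1 libraries. Without both sKO replicate 1 libraries 1 gene fell in each zone, Rgs14 in LZ and Rgs13 in DZ.

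Rgs14, which binds Gi alpha subunits through both its RGS domain and a GoLoco motif, had the clearest difference between genotypes. It stood at 16.5 and 14.7 FPKM in dKO LZ libraries against 22.4 and 23.2 FPKM in sKO LZ libraries. In DZ it stood at 16.0 and 16.5 FPKM in dKO against 20.8 and 19.8 FPKM in sKO. All 4 dKO libraries lay below all 4 sKO libraries. In LZ it fell by 0.52 ± 0.063 on the log2(FPKM + 1) scale (SE; limma, adjusted p = 0.0024; ratio of means 0.683). That call held in all 18 alternative analyses, with adjusted p from 0.000743 to 0.0199. In DZ it fell by 0.30 ± 0.063 (limma, adjusted p = 0.0307; ratio of means 0.801). The DZ call was lost in 7 of 18 alternatives. Of these, 5 leave out libraries: either dKO DZ library (adjusted p = 0.166 and 0.124), either sKO DZ library (0.133 and 0.0807) and both sKO replicate 1 libraries (0.137). The genotype difference in LZ minus that in DZ was -0.22 ± 0.089 (limma, adjusted p = 0.424). Between zones Rgs14 did not pass the test: LZ minus DZ was -0.060 ± 0.063 in dKO (adjusted p = 0.501) and 0.16 ± 0.063 in sKO (adjusted p = 0.0987).

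Rgs10, a small RGS protein of the same R12 subfamily as Rgs14, stood at 48.3 and 48.2 FPKM in dKO LZ against 44.0 and 49.9 FPKM in sKO LZ, and the groups overlapped. In DZ it stood at 46.4 and 42.1 FPKM in dKO against 50.1 and 50.4 FPKM in sKO, with no overlap. Neither difference passed the test. The LZ difference was 0.040 ± 0.071 (95% interval -0.13 to 0.21, adjusted p = 0.709), and its sign changed under upper quartile and quantile scaling (-0.019 and -0.034) and without sKO LZ replicate 1 (-0.049). The DZ difference was -0.18 ± 0.071 (interval -0.35 to -0.011, adjusted p = 0.156).

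Rgs19, also called GAIP and a member of the RZ subfamily, was lower in every dKO library than in every sKO library. It stood at 60.1 and 65.3 FPKM in dKO LZ against 77.2 and 71.6 FPKM in sKO LZ, and at 66.8 FPKM in both dKO DZ libraries against 74.5 and 78.8 FPKM in sKO DZ. In LZ it fell by 0.24 ± 0.059 (limma, adjusted p = 0.0222; ratio of means 0.842). That call was lost without dKO LZ replicate 1 (adjusted p = 0.117), without sKO LZ replicate 1 (0.0821), without both sKO replicate 1 libraries (0.0812) and with the LZ libraries fitted alone (0.069). The DZ difference was -0.19 ± 0.059 (interval -0.33 to -0.053, adjusted p = 0.0842).

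The other 6 genes belong to the R4 subfamily of small RGS proteins. Of these, Rgs2, Rgs13, Rgs1 and Rgs18 lie close together on mouse chromosome 1. In the RefSeq gene order Rgs2, Rgs13, Rgs1, Rgs21 and Rgs18 are consecutive coding genes. Rgs16 is on the same chromosome beside Rgs8, while Rgs3 is on chromosome 4, Rgs10 on 7, Rgs14 on 13 and Rgs19 on 2. A RefSeq promoter (build GRCm38.p6, while the expression table rests on mm9) was held for 6 of the 9 genes. These were Rgs2, Rgs3, Rgs10, Rgs13, Rgs16 and Rgs19. For Rgs1, Rgs14 and Rgs18 none was held, so no motif was searched there. Those of the adjacent Rgs2 and Rgs13 are shown over the 250 bases before the start site. Any part of these sequences in the levels of Rgs2 and Rgs13 was not tested. Rgs2 is at chr1:144004150-144004399 and Rgs13 at chr1:144177373-144177622, both on the minus strand; capitals mark TGACG, the core of the cAMP response element, on either strand.
Rgs2: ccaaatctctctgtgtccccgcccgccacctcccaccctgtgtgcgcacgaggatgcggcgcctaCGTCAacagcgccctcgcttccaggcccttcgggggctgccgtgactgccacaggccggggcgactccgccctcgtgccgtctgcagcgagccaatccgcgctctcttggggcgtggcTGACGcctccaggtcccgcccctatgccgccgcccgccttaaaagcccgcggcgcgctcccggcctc
Rgs13: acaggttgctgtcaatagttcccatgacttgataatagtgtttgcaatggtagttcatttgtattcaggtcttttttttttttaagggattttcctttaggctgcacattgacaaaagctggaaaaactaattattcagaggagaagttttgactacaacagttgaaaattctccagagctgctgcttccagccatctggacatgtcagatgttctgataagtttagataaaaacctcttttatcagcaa
The Rgs2 window is 72.4% G or C with 30 CG dinucleotides, above the upper quartile of all 32817 promoter windows (61.2% and 16). The Rgs13 window is 36% G or C with 0 CG dinucleotides, below the lower quartile (45.2% and 2). Rgs2 holds TGACG in reverse 185 to 181 bases before the start and in direct orientation 67 to 63 bases before it. The Rgs13 window holds neither form. Both forms contain CG, so a window with 0 CG dinucleotides could not hold them. TGACG on either strand occurs in 17.7% of all windows, a share not matched for CG content. The full element TGACGTCA (1.55% of windows) and the AP-1 element TGANTCA (6.75%), whose letters are also the core of the element bound by BACH and MAF factors, were found in none of the windows of the 6 genes. TGACG is itself part of TGACGTCA, and the 2 matches in Rgs2 overlap no other motif searched.

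Rgs13 was the most abundant of the 9 genes in every library. It stood at 127 and 131 FPKM in dKO LZ against 90.3 and 93.3 FPKM in dKO DZ, and at 125 and 138 FPKM in sKO LZ against 117 and 110 FPKM in sKO DZ. The LZ libraries were all above the DZ libraries. LZ against DZ it rose by 0.49 ± 0.059 in dKO (limma, adjusted p = 0.00172; ratio of means 1.41), a call that held in all 18 alternatives. In sKO it rose by 0.21 ± 0.059 (adjusted p = 0.0383; ratio of means 1.16). The sKO call was lost in 11 of 18 alternatives, and 7 of these leave out a library: either dKO LZ library (0.0638 and 0.064), sKO LZ replicate 2 (0.137), either dKO DZ library (0.0669 and 0.0667) and either sKO DZ library (0.0575 and 0.157).

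Between genotypes, Rgs13 fell in DZ by 0.30 ± 0.059 (limma, adjusted p = 0.0259; ratio of means 0.810). The DZ call was lost without either dKO LZ library (0.0551 and 0.0553), either dKO DZ library (0.152 and 0.112) or either sKO DZ library (0.114 and 0.0589). In LZ the dKO minus sKO difference was -0.024 ± 0.059 (95% interval -0.17 to 0.12, adjusted p = 0.798), and the groups overlapped. The genotype difference in LZ minus that in DZ was 0.28 ± 0.084 (limma, adjusted p = 0.358), which did not pass the test.

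Rgs18, best known from platelets, where it restrains Gi and Gq signalling, was the R4 gene with the widest zone difference past the threshold. It stood at 5.17 and 5.71 FPKM in dKO LZ against 2.73 and 2.32 FPKM in dKO DZ, and at 6.26 and 7.68 FPKM in sKO LZ against 4.13 and 3.44 FPKM in sKO DZ. It rose in LZ by 0.87 ± 0.12 in dKO (limma, adjusted p = 0.00296; ratio of means 2.16) and by 0.73 ± 0.12 in sKO (adjusted p = 0.00653; ratio of means 1.84). Both calls held in all 18 alternatives. Within each zone the dKO libraries lay below the sKO libraries. The genotype differences were -0.30 ± 0.12 in LZ (adjusted p = 0.109) and -0.44 ± 0.12 in DZ (adjusted p = 0.069), and neither passed the test. The DZ difference passed when small RNA genes were left out of the test (adjusted p = 0.0431).

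Markers of other cells also differed between the LZ and DZ libraries. Of 9 myeloid markers, 8 were in the table, and they summed to 20.4 and 141 FPKM in dKO LZ against 2.73 and 0.983 FPKM in dKO DZ, and to 6.60 and 50.4 FPKM in sKO LZ against 1.16 and 2.26 FPKM in sKO DZ. In both LZ groups Rgs18 was higher in replicate 2, the library with the higher myeloid sum. Across genotypes it was higher in sKO LZ replicate 1, with the lowest myeloid sum of the LZ libraries, than in both dKO LZ libraries. The 8 megakaryocyte and platelet markers summed to 0.558 and 2.80 FPKM in dKO LZ, 0.393 and 1.38 FPKM in sKO LZ, and 0.484 to 0.757 FPKM in DZ, and Pf4 was at 0 in 4 of 8 libraries. The naive and marginal zone B cell markers (3 of 4 in the table) summed to 193 and 200 FPKM in dKO LZ, 355 and 395 FPKM in sKO LZ, 51.9 and 53.1 FPKM in dKO DZ, and 106 and 108 FPKM in sKO DZ. They thus differed in the same direction as Rgs14, Rgs18 and Rgs19 between genotypes in both zones, as Rgs13 between genotypes in DZ, and as Rgs13 and Rgs18 between zones. The part of these cells in the differences was not tested.

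In the zone comparisons, Rgs13 and Rgs18 were the RGS genes that rose in LZ, 2 of 8 (25%) in dKO and in sKO, and 0 fell by limma. Among all tested genes 34.1% were called in dKO (18.0% rose and 16.1% fell) and 31.2% in sKO (15.2% rose and 16.1% fell). At an unadjusted p under 0.05, 2 were higher in dKO, 3 in sKO and 0 lower in either. The genotype difference in LZ minus that in DZ passed the threshold for 0 RGS genes (2 at an unadjusted p under 0.05, Rgs13 and Rgs14), and for 0.0283% of all tested genes. By unadjusted p, Rgs14 (0.0451, limma) ranked 1125 of 10610 there.

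**Figure D2:**
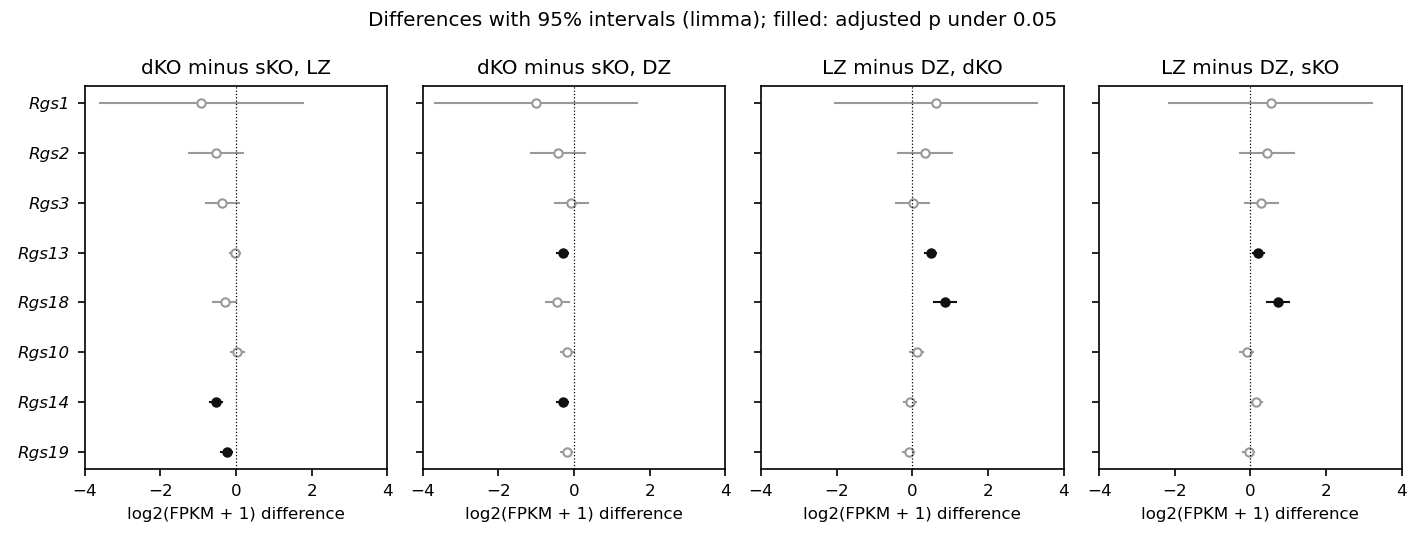
Log2 differences of the 8 tested RGS genes in the genotype comparisons and the zone comparisons, on the log2(FPKM + 1) scale; points are estimates, bars 95% intervals, and filled points passed an adjusted p of 0.05. The interval of Rgs1 is the widest (-3.59 to 1.77 in LZ, dKO minus sKO), and Rgs14 is the gene past the threshold between genotypes in both zones.

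Rgs1, which dampens chemokine receptor signalling, differed most between replicates. It stood at 7.75 and 9.76 FPKM in dKO LZ against 48.0 and 5.81 FPKM in sKO LZ. In DZ it stood at 3.95 and 6.92 FPKM in dKO against 31.4 and 3.93 FPKM in sKO. In each zone sKO replicate 1 was above both dKO libraries and sKO replicate 2 was below both. Rgs2, which acts mainly on Gq alpha subunits, stood at 58.7 and 62.6 FPKM in dKO LZ against 116 and 67.5 FPKM in sKO LZ, and at 47.0 and 47.9 FPKM in dKO DZ against 83.5 and 49.9 FPKM in sKO DZ. The dKO libraries were below both sKO libraries in each zone.

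Neither gene passed the test between genotypes. The Rgs1 difference was -0.91 ± 1.11 in LZ (adjusted p = 0.578) and -1.01 ± 1.11 in DZ (adjusted p = 0.618). Without both sKO replicate 1 libraries its sign turned, to 0.51 in LZ (adjusted p = 0.287) and 0.35 in DZ (adjusted p = 0.55). The Rgs2 difference was -0.54 ± 0.30 in LZ (adjusted p = 0.219) and -0.44 ± 0.30 in DZ (adjusted p = 0.402). Without those libraries it was -0.15 (adjusted p = 0.101) and -0.070 (adjusted p = 0.468). Between zones, LZ minus DZ for Rgs2 was 0.35 ± 0.30 in dKO (adjusted p = 0.409) and 0.45 ± 0.30 in sKO (adjusted p = 0.299). Without both sKO replicate 1 libraries these were 0.35 and 0.43. That fit was chosen after the values were seen and leaves 1 library in each sKO group. Its spread comes from the dKO libraries alone, without the spread of Rgs2 between the sKO replicates.

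Immediate-early genes, which many stimuli and handling steps induce within minutes, were raised in the same libraries. The level in replicate 1 over that in replicate 2 was taken for 12 of them, among them Fos, Fosb, Jun, Dusp1 and Klf4. These were chosen after the values were seen, so their agreement was shaped by the choice and carries no test. The ratio was 1.37 to 9.60 in sKO LZ (median 2.83) and 1.04 to 8.17 in sKO DZ (median 2.62), above 1 for 12 of 12 in each. The highest ratio in each is that of Klf4, with replicate 2 at 0.352 and 0.378 FPKM, under the filter of 1 FPKM. Atf3 was under 1 FPKM in every LZ library (0.307 to 0.762 FPKM). Its ratio in sKO DZ, 1.04, was the lowest there, at 1.42 and 1.36 FPKM. In dKO the ratio was 0.749 to 1.07 in LZ, above 1 for 2 of 12 (median 0.891), and 0.702 to 1.22 in DZ, above 1 for 3 of 12 (median 0.962). Fos, for example, was at 67.6 and 76.1 FPKM in dKO LZ against 212 and 49.9 FPKM in sKO LZ. Among 10451 tested genes without small RNAs, the log2 excess of replicate 1 over replicate 2 of Rgs1 ranked 5 in sKO LZ and 1 in sKO DZ, and that of Rgs2 ranked 72 and 44. The part of the immediate-early pattern in the genotype values of Rgs1 and Rgs2 was not tested.

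**Figure D3:**
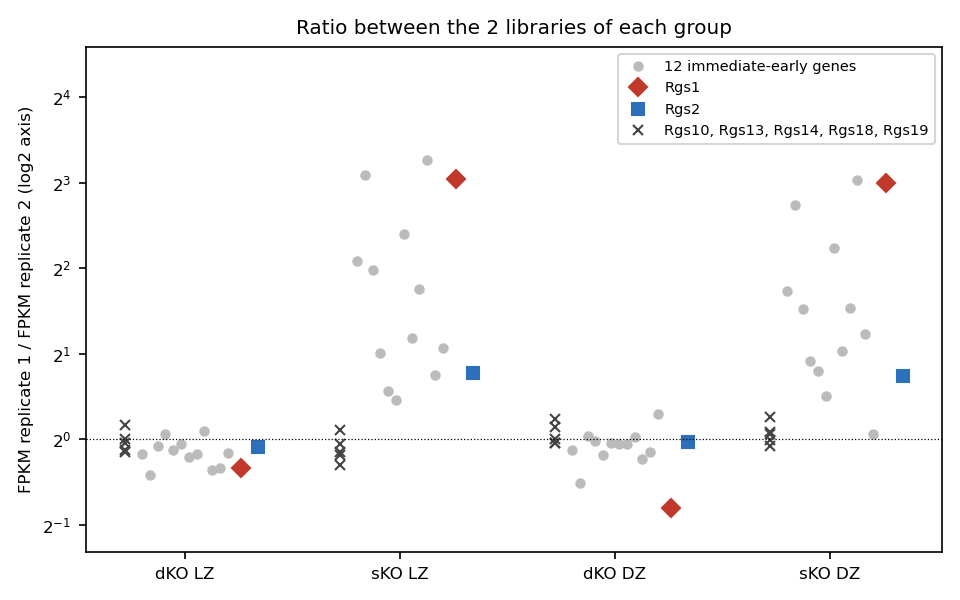
Replicate 1 over replicate 2 (ratio of FPKM, log axis) in each group for Rgs1, Rgs2, 12 immediate-early genes, and Rgs10, Rgs13, Rgs14, Rgs18 and Rgs19 (crosses). The immediate-early genes were chosen after their values were seen. In both sKO groups the immediate-early genes lie above 1 together with Rgs1 and Rgs2, and in the dKO groups 10 of 12 and 9 of 12 lie below 1, with medians of 0.891 in LZ and 0.962 in DZ.

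The remaining R4 genes were barely expressed. Rgs3, which acts on Gi and Gq alpha subunits, stood at 0.527 and 0.918 FPKM in dKO LZ against 1.06 and 1.35 FPKM in sKO LZ, and at 0.975 and 0.470 FPKM in dKO DZ against 0.744 and 0.862 FPKM in sKO DZ. It entered the test only through sKO LZ, where alone it reached 1 FPKM, so its LZ difference of -0.36 ± 0.18 (adjusted p = 0.181) is no support for a change. Rgs16, also active toward Gi and Gq, was at 0.203 and 0.169 FPKM in dKO LZ, 0.267 and 0.170 FPKM in sKO LZ, 0.119 and 0.122 FPKM in dKO DZ, and 0 and 0.0629 FPKM in sKO DZ, below the filter everywhere. Of the 2339 exonic bases of Rgs16, 236 are shared with an antisense gene, and reads of the overlap cannot be assigned without strand. The other 8 genes share no exonic base with another gene in GENCODE.

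In the order of the group means, Rgs13 ran sKO LZ (131 FPKM), dKO LZ (129), sKO DZ (113) and dKO DZ (91.8), and the first 2 groups overlapped. Rgs18 had the same order with no overlap between neighbours, at 6.97, 5.44, 3.79 and 2.52 FPKM. Rgs14 was ordered by genotype, with sKO LZ at 22.8 and sKO DZ at 20.3 FPKM above dKO DZ at 16.3 and dKO LZ at 15.6 FPKM, the last 2 overlapping. Rgs19 likewise had sKO DZ (76.6 FPKM) and sKO LZ (74.4), which overlapped, above dKO DZ (66.8) and dKO LZ (62.7).

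The genes whose levels followed each RGS gene most closely over the 8 libraries differed from member to member. With Pearson's r on log2(FPKM + 1) over 7113 genes at a mean of 5 FPKM or more, the nearest to Rgs14 were Bckdhb (0.991), Tgfbr2 (0.982) and Unc13d (0.979). Those nearest to Rgs19 were Phf14 (0.974), Fbxo18 (0.974) and Grina (0.966). Rgs13 was followed by Slfn2 (0.982), Bin3 (0.969) and Ccdc134 (0.968). Rgs18 was followed by Itpr1 (0.986), an endoplasmic reticulum calcium channel, Gimap4 (0.985) and Ccdc47 (0.985). Nearest to Rgs1 were Dnajb9 (0.986), Junb (0.972) and Arl4a (0.950), and to Rgs2 Arl4a (0.981), Junb (0.972) and Ccnl1 (0.963). For Rgs10 (Gnpda2, Rps19 and Znrd1, 0.828 to 0.845) and Rgs3 (Pot1b, Ppt1 and Baat1, 0.919 to 0.928) the likeness was lower. Within the family, r was 0.954 for Rgs13 with Rgs18, 0.925 for Rgs1 with Rgs2 and 0.761 for Rgs14 with Rgs19. These values describe 8 libraries that share groups of 2, and carry no test.

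Of 11 other RGS genes in the table, 2 were tested. Rgs9, known from the retina, where it acts on transducin, was at 6.31 and 6.97 FPKM in dKO LZ against 5.34 and 5.41 FPKM in sKO LZ, and rose there by 0.26 ± 0.067 (limma, adjusted p = 0.0289). That call was lost in 9 of 18 alternatives, with adjusted p up to 0.137. Rgs12 passed no comparison. Rgs4 was below the filter, at 0.0947 and 0.132 FPKM in dKO LZ against 0.999 and 0.854 FPKM in dKO DZ, and at 0.174 and 0.199 FPKM in sKO LZ against 0.726 and 0.735 FPKM in sKO DZ, with no overlap between zones.

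The RGS proteins act on alpha subunits, of which 10 of 13 were tested. For this and the following lists, the shares over all tested genes were 18.4% risen and 12.7% fallen in LZ and 6.63% and 5.23% in DZ, dKO against sKO. In LZ, dKO against sKO, Gna11 rose and Gnai2 fell, and in DZ 0 rose and 0 fell by limma (1 higher and 1 lower at an unadjusted p under 0.05). The larger of these 2 unadjusted p-values, that of Gna15 (0.0461, limma), ranked 2892 from the smallest among all 10610 tested genes. Gnai2, the main Gi subunit of lymphocytes and a substrate of RGS proteins, was at 298 and 293 FPKM in dKO LZ against 343 and 322 FPKM in sKO LZ. It fell by 0.17 ± 0.049 (adjusted p = 0.041), a call lost in 9 of 18 alternatives. Those that leave out a library were either dKO LZ library, sKO LZ replicate 1 and either dKO DZ library, with adjusted p up to 0.167. Gna11, a Gq family subunit, was at 7.80 and 7.16 FPKM in dKO LZ against 5.81 and 5.70 FPKM in sKO LZ and rose by 0.33 ± 0.063 (adjusted p = 0.011). The Gna11 call was lost without dKO LZ replicate 1 and without both sKO replicate 1 libraries (adjusted p up to 0.0659). Gna13, through which S1PR2 acts, passed no genotype comparison: the difference was 0.088 ± 0.054 in LZ (adjusted p = 0.265) and 0.096 ± 0.054 in DZ (adjusted p = 0.309). Between zones, LZ against DZ, 1 alpha subunit rose (10%) and 4 fell (40%) in each genotype, where over all tested genes 18.0% rose and 16.1% fell in dKO and 15.2% and 16.1% in sKO. Over the alternatives 0 to 1 rose, and 1 to 4 fell in dKO and 1 to 5 in sKO; without both sKO replicate 1 libraries 0 rose and 4 fell in each. Gna13 was among those that fell, by 0.37 ± 0.054 in dKO (adjusted p = 0.00326) and 0.36 ± 0.054 in sKO (adjusted p = 0.0043).

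Of 9 tested beta and gamma subunits, 1 rose (11.1%) and 2 fell (22.2%) in LZ, dKO against sKO, beside 18.4% and 12.7% of all tested genes. In DZ the counts were likewise 1 and 2, beside 6.63% and 5.23%. Gng2 was at 16.7 and 16.4 FPKM in dKO LZ against 23.0 and 25.7 FPKM in sKO LZ and fell by 0.53 ± 0.063 (limma, adjusted p = 0.0024), and Gnb4 fell by 0.68 ± 0.11 (adjusted p = 0.00524); both held in all 18 alternatives. In DZ, Gng2 fell by 0.30 ± 0.063 (adjusted p = 0.0307) and Gnb4 by 0.47 ± 0.11 (adjusted p = 0.0381). The DZ call of Gng2 held in 8 of 18 alternatives (adjusted p up to 0.166) and that of Gnb4 in 9 of 18 (up to 0.196). Both were lost when any of the 4 DZ libraries or either dKO LZ library was left out. The DZ calls of this list went to 0 higher and 0 lower without both sKO replicate 1 libraries. Between zones, LZ against DZ, 1 rose (11.1%) and 4 fell (44.4%) in each genotype. Over all tested genes 18.0% rose and 16.1% fell in dKO, and 15.2% and 16.1% in sKO.

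Among 12 tested receptors for chemokines and lipids, 2 rose (16.7%) and 6 fell (50%) in LZ, dKO against sKO, and 2 rose (16.7%) and 5 fell (41.7%) in DZ. Over all tested genes 18.4% rose and 12.7% fell in LZ, and 6.63% and 5.23% in DZ. The fallen count ranged from 3 to 6 in LZ and from 1 to 6 in DZ over the alternatives, and was 3 in DZ without both sKO replicate 1 libraries. Of these, P2ry10, a lysophospholipid receptor, was at 10.7 and 11.0 FPKM in dKO LZ against 18.6 and 19.8 FPKM in sKO LZ and fell by 0.77 ± 0.066 (limma, adjusted p = 0.00108). In DZ it fell by 0.57 ± 0.066 (adjusted p = 0.0071), a call lost without dKO DZ replicate 2 (adjusted p = 0.0594). Gpr174, a lysophosphatidylserine receptor, fell by 1.20 ± 0.11 in LZ (adjusted p = 0.00119) and by 1.09 ± 0.11 in DZ (adjusted p = 0.00481). Ccr6, the receptor for CCL20, was at 0.848 and 0.696 FPKM in dKO LZ against 3.11 and 3.40 FPKM in sKO LZ and fell by 1.26 ± 0.11 (adjusted p = 0.0011). Cxcr3, a receptor for interferon-induced chemokines, was at 0.0615 and 0.192 FPKM in dKO LZ against 2.44 and 2.91 FPKM in sKO LZ and fell by 1.70 ± 0.15 (adjusted p = 0.00119). Both reached 1 FPKM only in sKO, so they passed the filter only through the group where they are high. Their falls are therefore no support for a change. Both are counted among the 6 that fell in LZ, and Cxcr3 among the 5 that fell in DZ. S1pr2 rose, at 140 and 143 FPKM in dKO LZ against 118 and 109 FPKM in sKO LZ (difference 0.31 ± 0.048, adjusted p = 0.00522). It also rose in DZ, at 162 and 164 FPKM in dKO against 133 and 140 FPKM in sKO (0.25 ± 0.048, limma, adjusted p = 0.0235). The count of receptors that rose in DZ ranged from 0 to 2 over the alternatives. Cxcr5, the receptor for CXCL13, did not pass: it was at 87.7 and 94.5 FPKM in dKO LZ against 93.5 and 109 FPKM in sKO LZ, a difference of -0.14 ± 0.086 (adjusted p = 0.247), and -0.25 ± 0.086 in DZ (adjusted p = 0.119). Cxcr4, whose protein was used to sort the zones, was at 77.6 and 74.4 FPKM in dKO LZ against 78.3 and 73.5 FPKM in sKO LZ, a difference of 0.0024 ± 0.054 (95% interval -0.13 to 0.13, adjusted p = 0.98). Between zones, LZ against DZ, 7 receptors rose (58.3%) and 3 fell (25%) in dKO, beside 18.0% and 16.1% of all tested genes. In sKO 7 rose (58.3%) and 4 fell (33.3%), beside 15.2% and 16.1%. Cxcr4 was among those that fell in each genotype, and its protein was used to sort the zones, so its fall follows from the design.

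Among 13 tested receptor kinases, arrestins and other modulators, 2 rose (15.4%) and 6 fell (46.2%) in LZ, dKO against sKO, beside 18.4% and 12.7% of all tested genes. In DZ 2 rose (15.4%) and 1 fell (7.69%), beside 6.63% and 5.23%. Gpsm3, a GoLoco protein that, like Rgs14, binds Gi alpha subunits, was at 47.6 and 51.3 FPKM in dKO LZ against 69.5 and 67.4 FPKM in sKO LZ and fell by 0.46 ± 0.047 (limma, adjusted p = 0.00163). Arrb2, encoding beta-arrestin that uncouples receptors, was at 25.5 and 24.5 FPKM in dKO LZ against 18.3 and 19.1 FPKM in sKO LZ and rose by 0.40 ± 0.044 (adjusted p = 0.00185). Both LZ calls held in all 18 alternatives. In DZ Arrb2 rose by 0.30 ± 0.044 (adjusted p = 0.0119), a call lost without any of the 4 DZ libraries and without both sKO replicate 1 libraries (adjusted p up to 0.0928). Without both sKO replicate 1 libraries the counts of this list were 3 higher and 4 lower in LZ and 0 and 0 in DZ. Between zones, LZ against DZ, 1 rose (7.69%) and 4 fell (30.8%) in dKO, beside 18.0% and 16.1% of all tested genes. In sKO 2 rose (15.4%) and 4 fell (30.8%), beside 15.2% and 16.1%.

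Of 17 effectors, 6 were tested. In LZ, dKO against sKO, 1 rose (16.7%) and 2 fell (33.3%), beside 18.4% and 12.7% of all tested genes. In DZ 1 rose and 1 fell (16.7% each, beside 6.63% and 5.23%), and without both sKO replicate 1 libraries 0 and 0. The gene that rose in LZ was Pik3cg, a catalytic subunit of the phosphoinositide 3-kinase that beta-gamma subunits activate (0.33 ± 0.080, limma, adjusted p = 0.0233), a call lost without either dKO LZ library (adjusted p up to 0.0977). Adcy7, an adenylyl cyclase, was at 25.1 and 25.6 FPKM in dKO LZ against 35.2 and 36.9 FPKM in sKO LZ and fell by 0.49 ± 0.050 (limma, adjusted p = 0.00162). Plcb2, a phospholipase C that Gq and beta-gamma subunits activate, was at 6.73 and 6.23 FPKM in dKO LZ against 9.73 and 10.1 FPKM in sKO LZ and fell by 0.55 ± 0.061 (adjusted p = 0.00198). Both LZ calls held in all 18 alternatives. In DZ, Plcb2 was at 4.76 and 4.71 FPKM in dKO against 4.80 and 4.93 FPKM in sKO, and did not pass (adjusted p = 0.793). Between zones, LZ against DZ, 1 effector rose (16.7%) and 0 fell in dKO by limma, beside 18.0% and 16.1% of all tested genes. In sKO 2 rose (33.3%) and 0 fell, beside 15.2% and 16.1%. Unadjusted, 0 were lower in dKO and 1 in sKO.

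**Figure D4:**
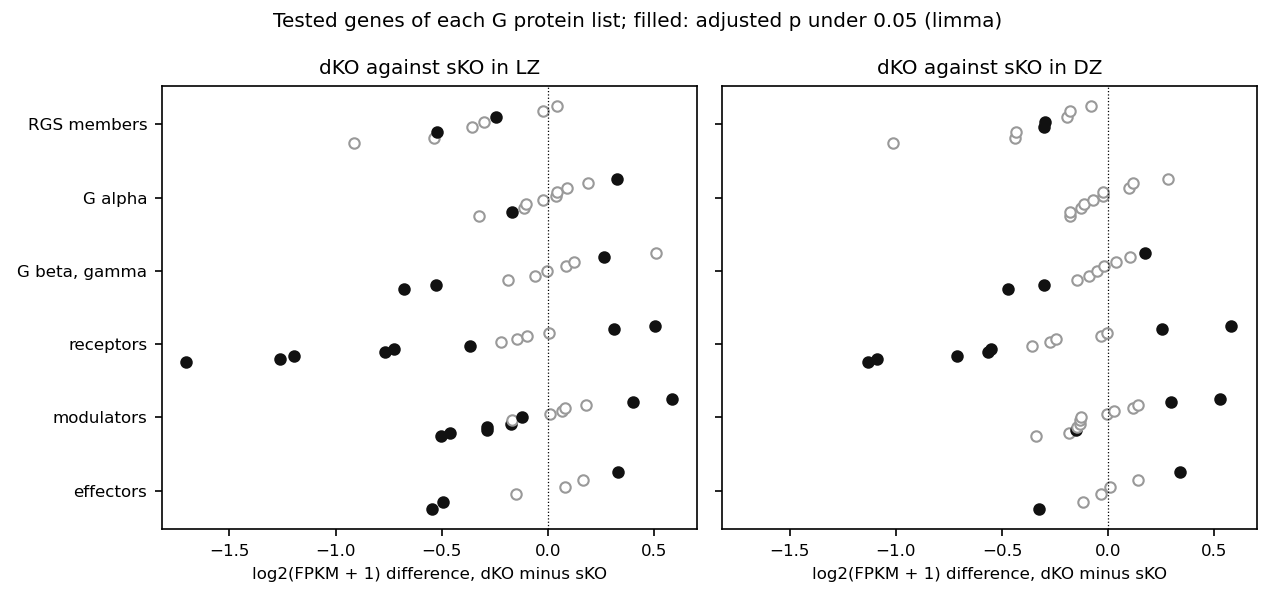
Log2 differences, dKO minus sKO, of the tested members of each G protein list in LZ and DZ; each point is a gene, filled where it passed an adjusted p of 0.05. Receptors spread most widely, and 2 of the 8 RGS genes are filled in each zone, all below 0.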

How the data were processed

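RNA of germinal centre B cells was sequenced as 8 libraries in 4 groups of 2, taken from the labels. Libraries came from total RNA by an NEBNext Ultra kit, per the labels' protocols; strand use is not stated. The submitters' processing notes list TopHat2 2.0.8, Cufflinks 2.1.1 and mm9 without their roles. The authors deposited FPKM for 23234 genes in 8 columns. Left out was 1 row with library codes; 0 columns lacked a sample.

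FPKM values are not counts, so log2(FPKM + 1) was tested with limma 3.58.1 (R 4.3.3) for the 10610 genes that reached 1 FPKM in 2 or more libraries. All libraries entered 1 group-means fit with an intensity trend, 4 residual and 2.46 prior degrees of freedom. Tests were 2-sided, with Benjamini-Hochberg adjustment over all tested genes per contrast and a threshold of 0.05. SD, SE and intervals (95%) rest on the spread between libraries. The fit was checked on simulated data.

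The RGS genes, the other lists and the markers were chosen with earlier results of these data known, from textbook roles. Named are all 9 RGS genes, the 3 genes most like each tested one (small RNAs, unnamed models and receptor segments left out), from each list some of the 4 called genes with the smallest p, and Cxcr4, Cxcr5, S1pr2, Gnai2 and Gna13. Immediate-early genes and Rgs4 were named after their values were seen. Alternatives changed the pseudocount (0.1), filter, scaling, libraries fitted, block and prior, or left out each library. Fits without both sKO replicate 1 libraries and without small RNA genes were added after seeing the data. Relative depth came from the commonest ratio of low values. Promoters are RefSeq's, and gene overlaps came from GENCODE vM21.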

Additional observations from a re-analysis of the deposited data

How the results depend on the processing

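The 2 calls in LZ, dKO against sKO, became 1 with only the LZ libraries fitted or without both sKO replicate 1 libraries (1 to 2 with a library left out). The 2 calls in DZ became 1 with no filter on low values, with the replicate block or without both sKO replicate 1 libraries (0 to 2 with a library left out). The 2 calls of LZ against DZ in sKO became 1 with only those libraries fitted, with the replicate block or with no intensity trend (1 to 2 with a library left out), and those in dKO were 2 to 2. The count rose to 3 by the gain of Rgs2 in dKO with only those libraries fitted, and in both genotypes without both sKO replicate 1 libraries. With no filter the 2 calls in sKO were Rgs16 and Rgs18, and Rgs13 had adjusted p = 0.0623. Interaction calls were 0 throughout. The fit without both sKO replicate 1 libraries was chosen after the values were seen. It leaves 1 library in each sKO group, so its gains and losses carry little weight. The cause of these changes was not tested, apart from the fewer libraries in some fits.

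The replicate numbers were not treated as pairs, since over all tested genes deviations of same-numbered libraries correlated at -0.11 to 0.12. The correlation was 0.061 for sKO LZ with sKO DZ, although immediate-early genes, Rgs1 and Rgs2 were raised in replicate 1 of both. With the replicate block, adjusted p was 0.0542 for Rgs14 in DZ, dKO against sKO, and 0.0543 for Rgs13, LZ against DZ in sKO. Calls over all genes in the 5 contrasts moved to 2994, 881, 3326, 2990 and 3 with the replicate block, from 3299, 1258, 3623, 3312 and 3 without.

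None of the log2 differences that changed sign had passed the test. Upper quartile scaling gave -0.019 for Rgs10 in LZ, dKO minus sKO, and -0.00022 for Rgs3, LZ minus DZ in dKO; quantile normalization gave -0.034 for Rgs10 in LZ. Without both sKO replicate 1 libraries Rgs10 in LZ was -0.049, Rgs1 was 0.51 in LZ and 0.35 in DZ, and the interaction was -0.094 for Rgs18 and 0.043 for Rgs19. With a library left out, dKO minus sKO in LZ ranged from -2.34 to 0.51 for Rgs1, -0.049 to 0.13 for Rgs10 and -0.098 to 0.050 for Rgs13; in DZ from -2.37 to 0.35 for Rgs1 and -0.29 to 0.13 for Rgs3. LZ minus DZ ranged in dKO from -0.21 to 0.22 for Rgs3 and -0.14 to 0.017 for Rgs14, and in sKO from -0.89 to 1.96 for Rgs1 and -0.096 to 0.012 for Rgs19. The interaction ranged from -1.33 to 1.52 for Rgs1, -0.48 to 0.28 for Rgs2 and -0.11 to 0.0086 for Rgs19.

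With 2 libraries a group and depth unknown, small differences can be missed.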
